A study of Mus musculus with 6 samples.

Results

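Thrombospondins, tenascins, periostin, osteopontin and versican are secreted matrix proteins that act mostly on cells rather than as structural fibres. The 9 mouse genes described here are Thbs1, Thbs2, Thbs3 and Thbs4 (thrombospondins), Tnc and Tnxb (tenascins), Postn (periostin), Spp1 (osteopontin) and Vcan (versican). They were taken by name from a table of 27366 features, and all 9 were among the 20344 that passed the low-value filter, a mean of at least 1 over the libraries. Read levels were measured by RNA-seq in cultured satellite cells, which are muscle stem cells, at day 4, in 3 control libraries and 3 libraries labelled Islr knockout. The cells had been sorted by flow cytometry on whether Islr was present, and both groups were grown in medium with 20% FBS and basic FGF, with penicillin-streptomycin. No label gives the strain, age, sex, allele or Cre line behind the knockout. Separate animals are not stated for the libraries either. Each p-value therefore sets a difference between means against the scatter among these 6 libraries alone. Whether that scatter is biological or technical is not stated.

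Thrombospondins and tenascins are multimeric glycoproteins with many binding partners. THBS1 and THBS2 are trimers that bind CD47, CD36 and LRP1, and THBS1 can also activate latent TGF-beta. THBS3 and THBS4 are pentamers, and THBS4 is known from tendon and from muscle attachment sites. Tenascin-C is made during development and after injury and binds integrins, whereas tenascin-X is a component of collagen-rich connective tissue. Periostin and osteopontin bind integrins such as alpha-v beta-3, and versican is a chondroitin sulphate proteoglycan that binds hyaluronan and is cut by ADAMTS proteases. In regenerating muscle these proteins are known as products of fibroblasts, macrophages and, for several of them, the muscle cells themselves.

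All values below are scaled reads, the recovered read numbers divided by a size factor per library, unless FPKM (reads per length and depth) is named. The libraries held 16456917 to 20531276 reads. Islr itself, the gene named in the labels, stood at 181.1, 12.8 and 1579 in control libraries 1, 2 and 3 and at 256.7, 7.4 and 10.9 in the libraries labelled Islr knockout 1, 2 and 3. The library labelled knockout 1 was therefore above 2 of the 3 control libraries and control 2 was close to the low knockout libraries, so every direction below is a difference between libraries as labelled. The annotated span of Islr overlaps that of Islr2 on the same strand. Islr2 stood at 43.3, 2.3 and 32.4 in control libraries 1, 2 and 3 and at 62.7, 1.8 and 2.5 in the knockout libraries. Whether shared reads add to the Islr values was not tested. The column used for control 1 carries a library name with 2 of its 4 digits exchanged against the label, and the other 5 names match. Pax7, the defining transcription factor of satellite cells, lay between 1233 and 2729 in all 6 libraries, whereas Chodl and Calcr, markers of quiescent satellite cells, stayed near 0, with medians of 2.14 and 2.06. Libraries with the same replicate number deviated together across genes, so pairs of libraries with the same number are given beside the group values. In RNA from whole cultures, fewer cells of a type and less RNA per cell cannot be told apart.

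Between the groups, 8 of the 9 genes lay on the higher side in the libraries labelled knockout and 1, Thbs3, on the lower side. The background is 53% of all tested genes above 0. The 9 genes were chosen with earlier results of these data known, so counts of them beside a background are descriptions only. The median log2 fold change of the 9 was 0.76, against 0.03 over all genes tested. It was 0.41 without control 3, and with the replicate block 0.38 without number 3 and 1.19 without number 1. None of the 9 passed the test, limma on log2(scaled reads + 1) with Benjamini-Hochberg adjustment over all genes (adjusted p = 1.0 for each), and neither did any other gene (0% called). Over all genes 276 had an unadjusted limma p under 0.05, and edgeR and DESeq2 on the recovered reads also called 0 without a block. At an unadjusted limma p under 0.05, 1 of the 9 was higher, Postn, where 1.15% of all genes were higher and 0.211% lower. With the replicate number as a block there were 4, Postn, Thbs2, Tnc and Thbs1, all higher, beside 3.66% of all genes higher and 0.924% lower (limma with the block, adjusted p = 0.92 for each of the 9). The 3 knockout libraries were all above the 3 control libraries for Thbs1, Tnc and Postn, 3 of 9, where 2.65% of all genes were separated in that direction and 2.11% in the other. Without knockout 1, which goes against its label in Islr, all 9 genes were on the higher side, with log2 fold changes from 0.02 (Thbs3) to 1.26 (Thbs2). Without control 2 they ran from -0.30 (Thbs3) to 1.36 (Tnc), with 8 of 9 higher, and without knockout 2 there were 7 of 9 higher.

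**Figure D1:**
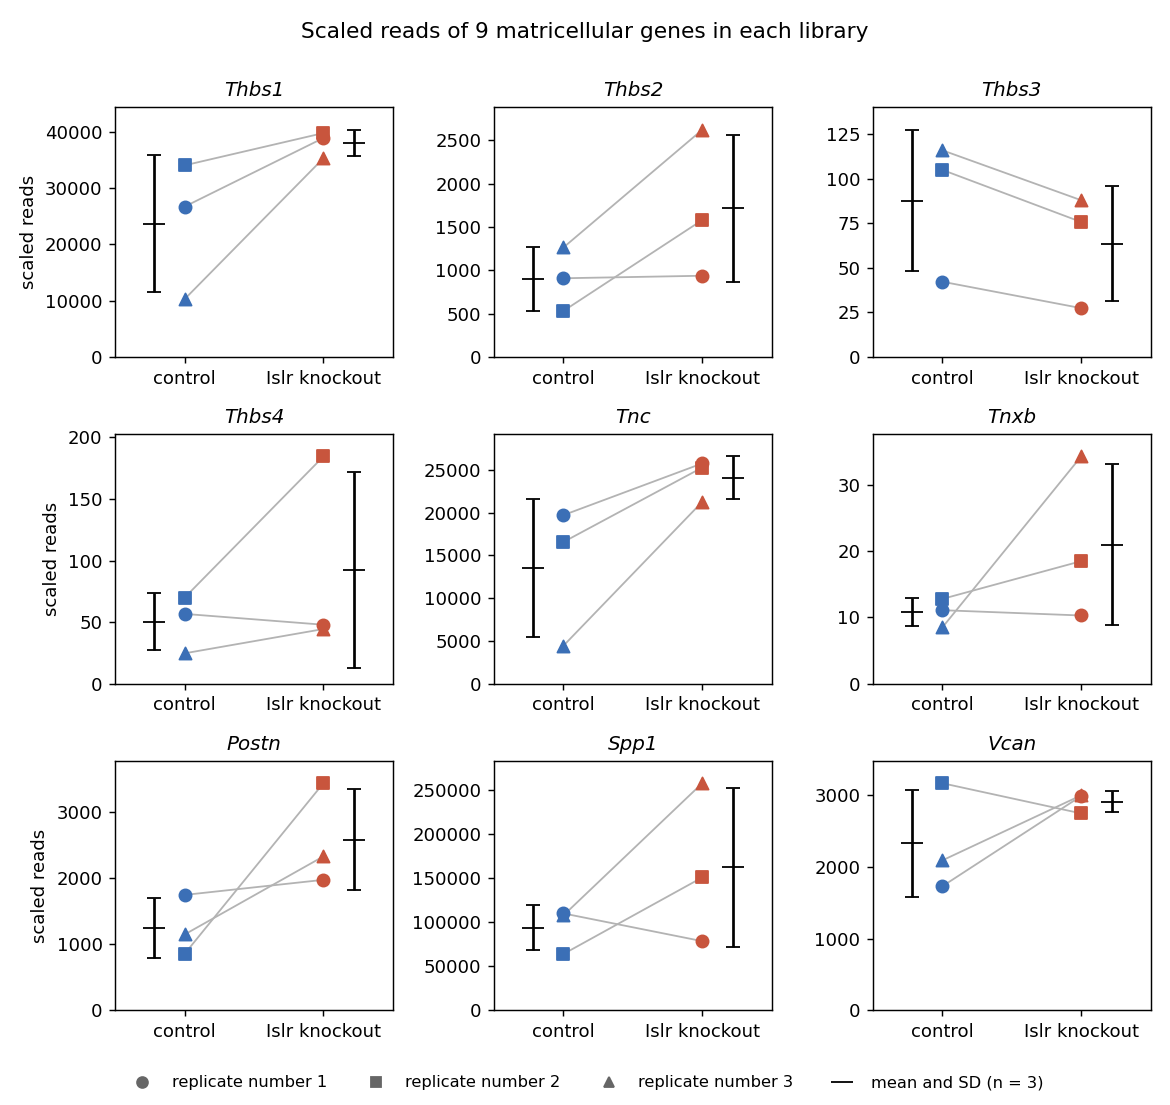
Scaled reads (vertical axes, each from 0) of the 9 genes in the 3 control and 3 Islr knockout libraries, with grey lines joining libraries of the same replicate number and black bars giving the mean and SD (n = 3). The groups do not overlap for Thbs1, Tnc and Postn, and for Thbs1 and Tnc control 3 lies far below the other control libraries.

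The genes differed in level by several orders of magnitude. By the median FPKM over the 6 libraries, the only scale used here to compare one gene with another, Spp1 came first at 4004 (range 2178 to 10171), followed by Thbs1 at 326 (100.4 to 371) and Tnc at 163 (35.8 to 194). Postn at 19.0 (8.38 to 35.9), Vcan at 12.4 (7.45 to 14.3) and Thbs2 at 10.4 FPKM (4.61 to 26.4) formed a middle range. Thbs3 at 1.16 (0.362 to 1.64), Thbs4 at 0.885 (0.442 to 3.15) and Tnxb at 0.0499 FPKM (0.0389 to 0.163) were low. The ranges of neighbours were apart at 3 steps of this order, Spp1 over Thbs1, Thbs2 over Thbs3 and Thbs4 over Tnxb. Within each library Thbs1 was above Tnc and Tnc above Postn in 6 of 6, but Vcan was above Thbs2 in only 2 of 6 and Thbs3 above Thbs4 in 3 of 6, so those neighbours were not separated beyond their spread. Spp1 was among the 15 genes with the most reads in every library, at rank 5, 15 and 4 in control libraries 1 to 3 and at rank 8, 2 and 1 in knockout libraries 1 to 3.

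**Figure D2:**
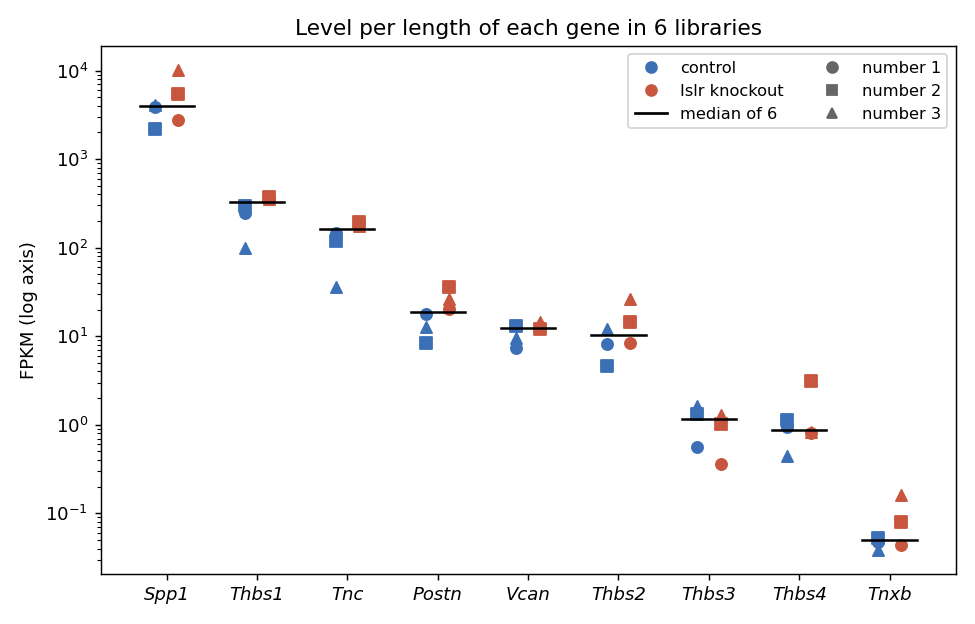
FPKM on a log axis for the 9 genes ordered by their median, with 1 point per library and the median over the 6 libraries marked. Spp1 lies above all other genes and Tnxb below all others, while Postn, Vcan and Thbs2 share 1 range and Thbs3 and Thbs4 another.

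Promoter sequences are shown for 4 of the 9 genes, none of which passed the adjusted test between the groups. They are Postn, with the smallest p of the 9, Tnc, whose groups did not overlap, and Spp1 and Thbs2, which had the second highest correlation among the 9 over the libraries. RefSeq windows on GRCm38.p6 were found for 8 of the 9 genes, all but Thbs1. Each line gives the 250 bases upstream of the RefSeq start that lies nearest to the annotated gene start, read 5′ to 3′ on the gene's strand. The Postn stretch is chr3:54360857-54361106 on the plus strand, Spp1 chr5:104434861-104435110 on the plus strand, Thbs2 chr17:14694263-14694512 on the minus strand and Tnc chr4:64047016-64047265 on the minus strand. Capitals mark matches on either strand to TATAAA and to AACCACA, a RUNX-type motif.
Postn: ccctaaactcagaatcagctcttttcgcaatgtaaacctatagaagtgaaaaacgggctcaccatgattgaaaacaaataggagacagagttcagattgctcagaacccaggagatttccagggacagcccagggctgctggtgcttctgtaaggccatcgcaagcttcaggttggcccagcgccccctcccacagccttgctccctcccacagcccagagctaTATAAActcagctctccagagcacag
Spp1: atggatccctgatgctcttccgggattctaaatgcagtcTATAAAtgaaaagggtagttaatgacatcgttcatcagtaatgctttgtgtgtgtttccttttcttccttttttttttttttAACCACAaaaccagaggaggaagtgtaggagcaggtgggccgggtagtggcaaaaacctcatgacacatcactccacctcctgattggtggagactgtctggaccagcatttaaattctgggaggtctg
Thbs2: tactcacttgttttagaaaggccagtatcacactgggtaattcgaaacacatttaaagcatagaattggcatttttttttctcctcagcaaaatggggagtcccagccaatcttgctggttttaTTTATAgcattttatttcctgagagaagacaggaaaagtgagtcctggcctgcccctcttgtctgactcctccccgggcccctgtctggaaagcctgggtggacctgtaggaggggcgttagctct
Tnc: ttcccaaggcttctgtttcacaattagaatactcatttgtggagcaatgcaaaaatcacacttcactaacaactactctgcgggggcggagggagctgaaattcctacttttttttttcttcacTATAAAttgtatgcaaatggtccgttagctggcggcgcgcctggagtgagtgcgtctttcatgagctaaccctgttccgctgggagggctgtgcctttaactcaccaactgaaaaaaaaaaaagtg
Position -1 is the base before the start. The Postn match to TATAAA begins at -26, where a TATA box usually lies, whereas those of Spp1 (-211), Thbs2 (-126, on the other strand) and Tnc (-126) lie further upstream. The Spp1 match to AACCACA begins at -129. Of all 32851 windows of 300 bases in the table, 13.6% held TATAAA and 5.27% held AACCACA on either strand. Among the windows of the 8 genes, TATAAA was in those of the 4 genes shown and in none of the others. The sequences shown therefore do not stand for the 8 in this respect. The search, over 250 bases before to 50 after each start, also covered TGANTCA (AP-1), GGAATG (TEAD), the CArG box and the E-box CAGCTG, held by 7.81%, 14.7%, 1.63% and 16.3% of windows. It found TGAGTCA in Tnxb at -55 and 2 matches to GGAATG on the other strand in Thbs4, at -197 and -192. No motif searched was in the Thbs3 or Vcan window. The GC content was 45.3% for Spp1, 47.3% for Tnc, 48.3% for Thbs2, 53% for Postn and 72% for Thbs4, beside a median of 52.7% over all windows. A match describes these letters only.

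Thbs1 (ENSMUSG00000040152, chr2:118111876-118127133, plus strand, GRCm38), the thrombospondin best known for blocking angiogenesis and for activating TGF-beta, stood at 26702, 34030.2 and 10274 scaled reads in control libraries 1, 2 and 3. In knockout libraries 1, 2 and 3 it stood at 38884, 39765 and 35286. The knockout libraries were close together and all above the controls, among which control 3 was low. The means were 23669 ± 12165 (SD, n = 3) and 37978 ± 2373, a 1.6-fold ratio, and the log2 fold change was 0.85 (SE 0.43, 95% interval -0.12 to 1.82, limma unadjusted p = 0.0799, 0.0189 with the replicate block). Without control 3 the log2 fold change was 0.33. Thbs1 was higher in the knockout library of each of the 3 pairs, by 0.54, 0.22 and 1.78 on the log2 scale.

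Thbs2 (ENSMUSG00000023885, chr17:14665500-14694235, minus strand), the second trimeric thrombospondin and a clearance partner of matrix metalloproteinases, stood at 907.7, 531.4 and 1263 in the controls and at 936.7, 1579 and 2619.7 in the knockout libraries. The groups overlapped, since knockout 1 was below control 3, and knockout 3 was the highest of the 6. The means were 901 ± 366 and 1712 ± 849 scaled reads (SD, n = 3), with a log2 fold change of 0.89 (SE 0.44, interval -0.10 to 1.88, limma unadjusted p = 0.0733, 0.013 with the block). The pairs differed by 0.05, 1.57 and 1.05. Leaving out knockout 3 gave 0.52 and leaving out control 2 gave 0.55.

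The pentameric thrombospondins were at far lower levels. Thbs3 (ENSMUSG00000028047, chr3:89215180-89226837, plus strand) stood at 42.2, 104.9 and 115.9 scaled reads in the controls and at 27.4, 75.7 and 87.9 in the knockout libraries. Both libraries numbered 1 were low and the groups overlapped. Its log2 fold change was -0.49 (SE 0.60, interval -1.86 to 0.88, limma unadjusted p = 0.439), and the knockout library was lower in each of the 3 pairs, with log2 differences of -0.61, -0.47 and -0.40. Without knockout 1 the value was 0.02, on the other side of 0, and leaving out control 1, control 2, control 3 or knockout 3 gave -0.94, -0.30, -0.23 and -0.80. Thbs4 (ENSMUSG00000021702, chr13:92751590-92794818, minus strand) stood at 56.7, 69.9 and 24.7 in the controls and at 47.9, 184.5 and 44.4 in the knockout libraries. Knockout 2 alone was above all controls, and the remaining knockout libraries lay inside the control range. The log2 fold change of Thbs4 was 0.66 (SE 0.67, interval -0.86 to 2.18, limma unadjusted p = 0.353), and it was -0.00 without knockout 2, 0.22 without control 3 and 1.01 without knockout 3.

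Tnc (ENSMUSG00000028364, chr4:63959785-64047015, minus strand), the tenascin induced at sites of injury and in stem cell niches, stood at 19699, 16561 and 4446 scaled reads in the controls. In the knockout libraries it stood at 25740.3, 25258 and 21251. The 3 knockout libraries were all above the controls and control 3 was again far below the others. The means were 13568 ± 8055 and 24083 ± 2464 (SD, n = 3), with a log2 fold change of 1.08 (SE 0.52, interval -0.11 to 2.27, limma unadjusted p = 0.0691, 0.0147 with the block). Without control 3 it was 0.41. The pairs differed by 0.39, 0.61 and 2.26, higher in the knockout library of each.

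Tnxb (ENSMUSG00000033327, chr17:34670535-34719815, plus strand), which encodes tenascin-X, had only 10, 11 and 10 reads in the controls before scaling, and 9, 20 and 41 in the libraries labelled knockout. In scaled reads the levels were 11.1, 12.8 and 8.5 against 10.3, 18.5 and 34.3. The controls were nearly level, knockout 1 lay among them, and knockout 3 was highest. The log2 fold change was 0.76 (SE 0.63, interval -0.68 to 2.20, limma unadjusted p = 0.262), and it was 0.34 without knockout 3 and 1.17 without knockout 1. The value rests on these few reads.

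Postn (ENSMUSG00000027750, chr3:54361109-54391037, plus strand), a matricellular protein of injured and fibrotic tissue, stood at 1746, 855.4 and 1148 scaled reads in the controls and at 1974, 3434 and 2328 in the knockout libraries. The groups did not overlap, although knockout 1 and control 1 were close. The means were 1250.0 ± 454 and 2578 ± 762 (SD, n = 3), a 2.06-fold ratio, and the log2 fold change was 1.07 (SE 0.33, interval 0.31 to 1.83). Postn had the smallest limma p of the 9 (unadjusted p = 0.0114, adjusted p = 1.0, with the block 0.00956 and 0.92). The pairs differed by 0.18, 2.00 and 1.02, so pair 1 showed little of the difference. Leaving out any 1 library gave 0.82 to 1.34.

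Spp1 (ENSMUSG00000029304, chr5:104435118-104441050, plus strand), which encodes osteopontin, an integrin and CD44 ligand made by macrophages and myoblasts, stood at 110226, 64179.9 and 108069.6 scaled reads in the controls. In the knockout libraries it stood at 78744, 151151 and 258181. Knockout 1 lay inside the control range and the other knockout libraries were above all controls. The means were 94159 ± 25985 and 162692 ± 90274 (SD, n = 3), and the log2 fold change was 0.67 (SE 0.45, interval -0.36 to 1.70, limma unadjusted p = 0.174). The pairs differed by -0.49, 1.24 and 1.26, so pair 1 went the other way. The group value was 1.11 without knockout 1, the library labelled knockout in which Islr was present, 0.41 without control 2 and 0.25 without knockout 3.

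Vcan (ENSMUSG00000021614, chr13:89655312-89742509, minus strand), the hyaluronan-binding proteoglycan of provisional matrix, stood at 1732, 3169 and 2093 in the controls and at 2990.2, 2748 and 2999.7 in the knockout libraries. Control 2 was the highest of the 6 and the groups overlapped. The means were 2331 ± 747 and 2913 ± 142 scaled reads (SD, n = 3), with a log2 fold change of 0.37 (SE 0.28, interval -0.27 to 1.00, limma unadjusted p = 0.222). Without control 1 it was 0.18, and without control 2 it was 0.61 (limma unadjusted p = 0.0393). Vcan also varied least in FPKM, 1.92-fold from the lowest to the highest library, where Thbs4 varied most at 7.12-fold.

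In the authors' deposited table, whose fold changes come from their own fit, the log2 fold changes were 0.68 for Thbs1, 0.93 for Thbs2, -0.46 for Thbs3, 0.88 for Thbs4, 0.83 for Tnc, 0.97 for Tnxb, 1.04 for Postn, 0.79 for Spp1 and 0.32 for Vcan. The smallest p in the authors' deposited table was that of Postn, 0.0116, followed by Thbs2 at 0.0621, and the adjusted p was 1.0 for all 9. The directions were those given above for each gene.

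By their median the paired differences were smallest in replicate number 1, with Thbs1 and Vcan as exceptions among genes on the higher side. In pair 1, 5 of the 9 genes were above 0 and their median was 0.05 on the log2 scale. In pair 2, 7 were above 0 with a median of 0.61, and in pair 3, 8 with a median of 1.05. Over all genes tested the medians of the 3 pairs were 0.02, 0.00 and 0.01. Over the 3 pairs, 4 genes were higher in each (Thbs1, Thbs2, Tnc and Postn) and 1 was lower in each (Thbs3), where 12.2% of all genes were higher and 12.1% lower in each. The libraries labelled control 1 and knockout 1, which gave that smallest median, were also the pair in which Islr was present in both. Islr was low in both libraries of pair 2, at 12.8 in control 2 and 7.4 in knockout 2, where the median was 0.61. In pair 3, where the median was 1.05, Islr stood at 1579 in control 3 and 10.9 in knockout 3. The part of Islr level in these differences was not tested.

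**Figure D3:**
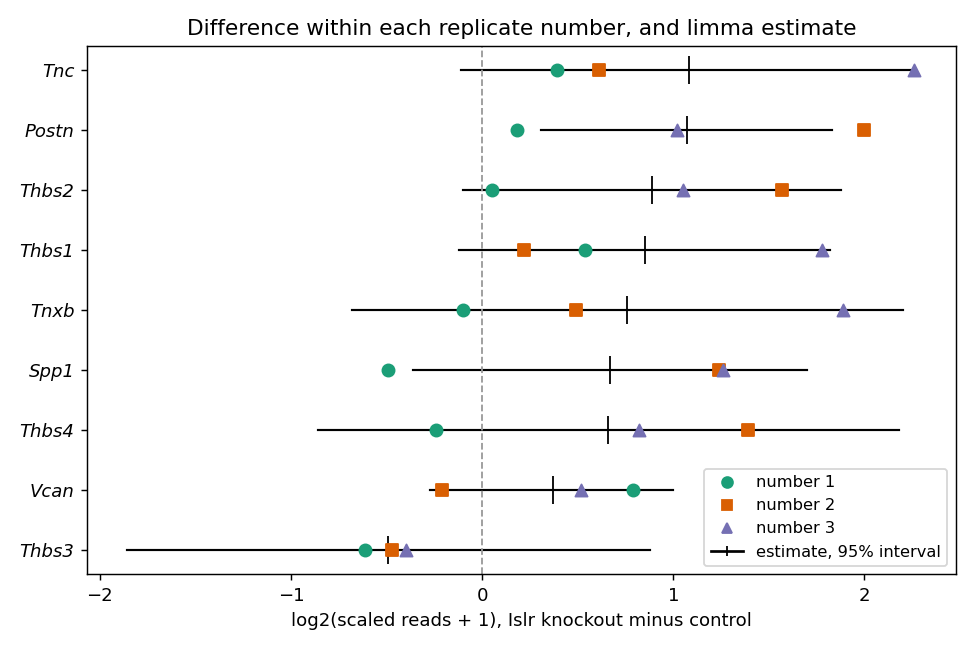
Log2 difference, knockout minus control, for each of the 3 library pairs (points) and the group log2 fold change with its 95% interval (bars) for the 9 genes, with the line at 0 marking equal levels. The interval stays above 0 for Postn alone (0.31 to 1.83), and the points of pair 1 lie nearest to 0 or below it for most genes.

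None of the 9 passed the F-test between the replicate numbers with genotype as a term, a test that called 6.35% of all genes (limma adjusted p under 0.05). At an unadjusted p under 0.05 there were 4 of 9, beside 27% of all genes. Thbs3 came closest, with libraries numbered 2 and 3 above those numbered 1 by 1.36 and 1.54 (log2) and a limma adjusted p of 0.0803. For Thbs4 the difference of number 3 minus number 2 was -1.75 (adjusted p = 0.125, limma), for Thbs2 number 3 was above number 1 by 0.98 (adjusted p = 0.147, limma) and for Tnc number 3 minus number 1 was -1.21 (adjusted p = 0.171, limma).

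Across the 6 libraries the genes fell into more than one pattern. Thbs1 and Tnc had a Pearson r of 0.97 with each other on log2(scaled reads + 1), and both were low in control 3 alone. Spp1 and Thbs2 had an r of 0.96, with the highest values in knockout 3 and the lowest in control 2, and Tnxb had an r of 0.81 with Spp1. The r of Thbs1 with Thbs2 was 0.00 and with Spp1 0.09. Postn lay between, at 0.69 with Thbs2 and 0.66 with Spp1, and Thbs3 had an r of -0.58 with Tnc. These are descriptions over 6 libraries that share group and replicate number, and are given without a p. The lowest control differed between these genes, control 3 for Thbs1 and Tnc, and control 2 for Spp1, Thbs2 and Postn.

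**Figure D4:**
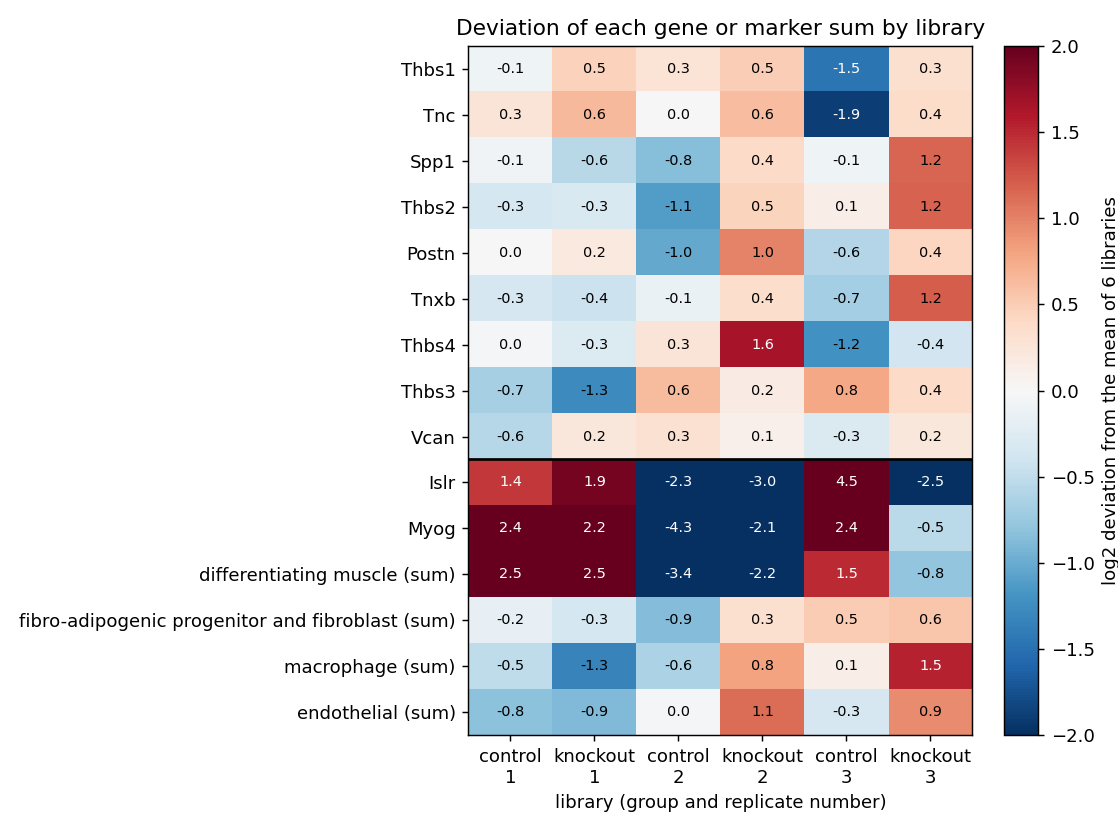
Log2 deviation of each of the 9 genes (above the line) and of Islr, Myog and 4 marker sums (below the line) from its mean over 6 libraries, with a column per library and colours ending at 2. Thbs1 and Tnc are lowest in control 3 (-1.46 and -1.89), Spp1 and Thbs2 are highest in knockout 3 (1.16 and 1.18), and the macrophage sum is also highest there (1.54).

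Markers of other cells also varied between the libraries. The summed level of 14 macrophage markers was 298, 274 and 468 in the controls and 167, 739 and 1239.5 in the knockout libraries, and 8 of 11 were above 0 with a median log2 fold change of 0.62. Of the 14, 13 were tested, since Aif1 did not pass the low-value filter. Ptprc and Spi1 are also left out of that count, since their control means were under 1 and they passed the filter through the knockout libraries alone. The group ranges of that sum were 274 to 468 and 167 to 1239.5. Ptprc, the pan-leukocyte marker, was at 0.0 in all 3 controls and in knockout 2, and was above 0 in knockout 1 and 3, with a knockout mean of 3.73 ± 5.5 (SD, n = 3), and Lyz2 had the highest mean of that list. The sum of 14 fibroblast and fibro-adipogenic progenitor markers was 11141, 6824 and 17741 against 9814, 15574 and 18412, with 10 of 11 above 0 and a median of 0.70 when Dpt, Pi16 and Dpp4, each with a group mean under 1, are left out. Pdgfra, the defining gene of those progenitors, stood at 91.1, 85.1 and 165.3 against 83.3, 296.1 and 417.6, while those 3 genes stayed under 5 in every library. Col3a1, with the highest mean of that list, stood at 5046, 4092 and 7422 against 4616, 5449 and 6379 (log2 fold change 0.02). The sum of 12 endothelial markers was 499, 853 and 695 against 477, 1913 and 1696, with 12 of 12 above 0 and a median of 0.78. Cdh5, with the highest mean among them, stood at 138.9, 226.1 and 161.1 against 110.7, 597.8 and 632.7. The sum of 10 Schwann cell markers was 2649, 996 and 2311 against 3396, 2401 and 2616. Its largest part in control 1 was Erbb3, which stood at 1862, 282.0 and 942.6 against 2629.7, 251.9 and 375.0 (log2 fold change -0.33). Of the 10 Schwann cell markers, 8 were above 0 with a median of 0.62. Sox10, which defines that lineage, stood at 51.1, 83.9 and 43.5 against 31.9, 293.4 and 276.2, Foxd3 at 23.3, 31.5 and 26.4 against 12.5, 151.3 and 120.5, and Ngfr at 331.1, 250.5 and 328.1 against 335.4, 900.4 and 934.1, with no overlap (limma unadjusted p = 0.0239). The macrophage and endothelial sums and Sox10, Foxd3 and Ngfr were highest in knockout 2 and 3, as were Spp1 and Thbs2. The Schwann cell sum and Erbb3 were instead highest in knockout 1. The part of these cells in the result was not tested.

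In the other marker lists, the tenocyte and cartilage sum was 2823 to 4276 over the 6 libraries, the pericyte and smooth muscle sum 27659 to 105962 and the satellite cell and myoblast sum 59851 to 138929.9, each with overlapping groups. In that order 8, 8 and 3 markers were above 0 and 3, 4 and 7 below, with median log2 fold changes of 0.34, 0.43 and -0.21. Scx had the highest mean of the tenocyte and cartilage list (log2 fold change -0.42). Des had that of the pericyte list and of the satellite cell list (-0.19). Col2a1, a cartilage marker, was lower with no overlap, at 25.6, 23.3 and 35.8 against 5.7, 18.5 and 4.2 (limma unadjusted p = 0.0323). Myod1 was lower in each pair, as were 12.1% of all genes.

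Differentiation also varied between libraries. Myog, the transcription factor of differentiating myocytes, stood at 43369.9, 417.2 and 43261 in the controls and at 37228, 1998 and 5737 in the knockout libraries, and the sum of 12 muscle differentiation markers ran from 8366 in control 2 to 510549 in knockout 1. Of these 12 markers, 3 were above 0 and 9 below, with a median log2 fold change of -0.22. Acta1 had the highest mean among them (log2 fold change 0.19). The correlation of the 9 genes with Myog ran from -0.66 for Vcan to 0.19 for Thbs2 over the 6 libraries. The part of differentiation in the differences was not tested.

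Sparc, the matricellular gene named in the series title, stood at 35643, 26619 and 26972 in the controls and at 31909, 34823 and 31470.0 in the knockout libraries. Its groups overlapped and its log2 fold change was 0.15 (SE 0.26, limma unadjusted p = 0.575), and it is given without a test against the 9 genes.

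Relatives of the 9 and genes whose products bind, cut or induce them were taken from 6 lists of 116 genes, of which 112 were tested. The lists too were chosen with earlier results of these data known, so their counts are descriptions only. Ncan and Adamts15, with a mean under 1 in the controls or the knockout libraries, are left out of the counts, which leaves 110. Of these, 89 were above 0 and 21 below, beside 53% of all genes above 0, with a median log2 fold change of 0.36, and none passed the adjusted limma p. At an unadjusted limma p under 0.05, 9 were higher and 0 lower, beside 1.15% and 0.211% of all genes. With the replicate block 21 were higher and 0 lower, beside 3.66% and 0.924%. The knockout libraries were all above the controls for 9, beside 2.65% of all genes, and all below for 0, beside 2.11%. The pair medians of all 112 were 0.15, 0.49 and 0.50, so pair 1 was again the smallest.

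Receptors were the longest of the lists. Of 28 receptors and co-receptors, 24 were above 0 and 4 below, with a median of 0.38, and 5 had an unadjusted limma p under 0.05, all higher, namely Itgav, Itgb3, Itga4, Lrp1 and Egfr, beside 1.15% of all genes higher and 0.211% lower. Egfr, the epidermal growth factor receptor, which EGF-like repeats of tenascin-C can bind, stood at 529.9, 475.5 and 534.4 in the controls and at 862.5, 725.1 and 1249.6 in the knockout libraries (log2 fold change 0.84, SE 0.27, limma unadjusted p = 0.0134). The groups of Egfr did not overlap. Itgav, the integrin chain shared by receptors for periostin and osteopontin, stood at 2364, 3329 and 1687 against 3898, 4274 and 3735 (0.74, SE 0.29, limma unadjusted p = 0.0323). Its partner Itgb3 stood at 589.9, 419.5 and 435.5 against 523.7, 1459.5 and 1276, with knockout 1 inside the control range (1.06, SE 0.40, limma unadjusted p = 0.0264). Lrp1, the endocytic receptor that clears thrombospondins, stood at 14114, 13516 and 8236 against 23616, 17141 and 21602 with no overlap (0.83, SE 0.30, limma unadjusted p = 0.0233). The smallest p on the lower side was that of Vldlr, at -0.45 (limma unadjusted p = 0.456), and Itgb1 had the highest mean of the list.

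Among the versican partners of hyaluronan metabolism, 11 of 12 tested were above 0 and 1 below, with a median of 0.57. Tnfaip6, which links hyaluronan to heavy chains, had the smallest p (2.2, 4.7 and 6.0 against 6.8, 34.1 and 23.4, limma unadjusted p = 0.0335). Before scaling these were only 2, 4 and 7 reads in the controls and 6, 37 and 28 in the knockout libraries. Has1, a hyaluronan synthase, stood at 23.3, 21.0 and 23.9 against 33.1, 72.9 and 56.9 (log2 fold change 1.15, limma unadjusted p = 0.0495). The link protein Hapln1 was on the lower side, at -0.50.

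Of the proteases that cut the 9 proteins, 12 were above 0 and 2 below without Adamts15, with a median of 0.52. Adamts1, which cuts versican, stood at 531.1, 505.8 and 213.9 in the controls and at 693.6, 945.6 and 903.1 in the knockout libraries, with no overlap and control 3 low as for Thbs1 and Tnc (log2 fold change 1.12, SE 0.38, limma unadjusted p = 0.0161). With the replicate block 4 were higher, Adamts1, Adamts5, Mmp9 and Plau, and 0 lower at an unadjusted limma p under 0.05, beside 3.66% and 0.924% of all genes. Adamts15 was near 0 in all but control 3, where it stood at 56.3.

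Of 23 other matricellular genes, 15 were above 0 and 8 below, with a median of 0.15. Ccn2, a connective tissue growth factor induced by TGF-beta and YAP, stood at 3112, 1402 and 1229 against 2194, 6296 and 3586, with overlapping groups (log2 fold change 1.07, SE 0.47, limma unadjusted p = 0.0485). Lgals1, which encodes galectin-1, had the smallest p on the lower side, with a log2 fold change of -0.37. Of 26 inducers and transcription factors, 20 were above 0 and 6 below, with a median of 0.21 and none at an unadjusted p under 0.05. Wwtr1, the transcriptional coactivator TAZ, had the smallest p on the higher side (0.44, limma unadjusted p = 0.0885) and Jun on the lower (-0.15, limma unadjusted p = 0.571). Of the relatives, 7 of 7 were above 0, beside 53% of all genes, with a median of 0.76 and none at an unadjusted limma p under 0.05. Several were near the floor, with control means of 4.31 (Comp), 5.22 (Tnn), 1.7 (Tnr) and 5.06 (Bcan) scaled reads. Tnr was high in knockout 3 alone, at 58.6. The remaining relative tested, Ncan, which encodes neurocan, passed the filter through the knockout libraries alone and was at 0.0 in all 3 controls and at 3.4, 1.8 and 2.5 in the knockout libraries, too few reads for a fold.

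**Figure D5:**
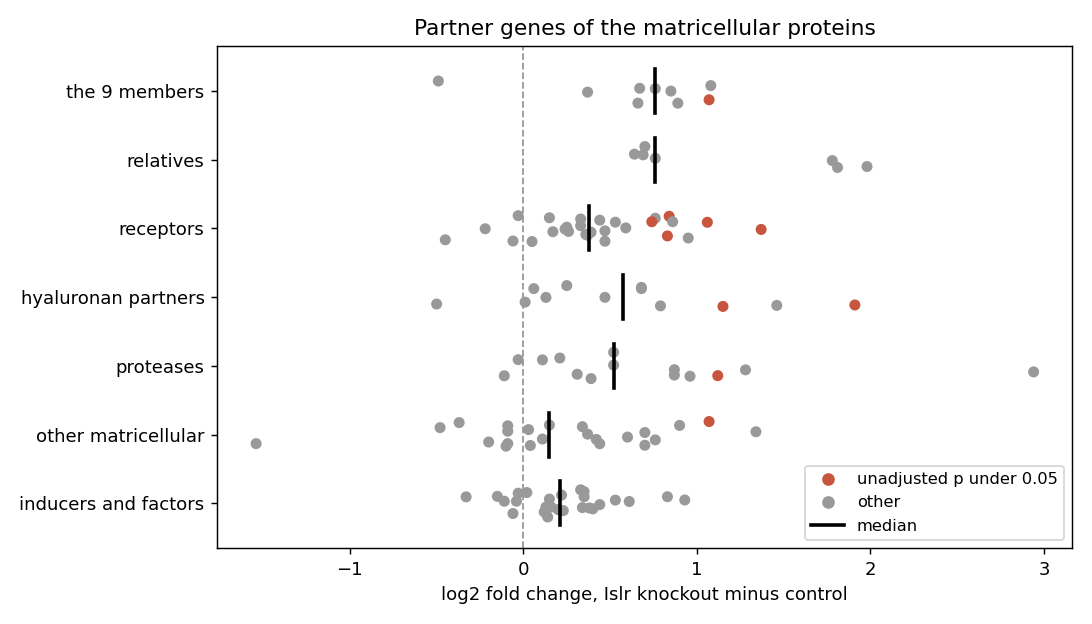
Log2 fold change, knockout minus control, of each tested gene (points, red where the unadjusted limma p was under 0.05) with a mean of at least 1 in both groups, among the 9 genes and the 6 lists of relatives, receptors, hyaluronan partners, proteases, other matricellular proteins and inducers, with the median of each list marked. Most genes in each list lie above 0, with medians from 0.15 to 0.76 in the 6 lists and 0.76 in the 9 genes.

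The genes with the most similar profile over the 6 libraries, out of 10406 with a mean of at least 100, were named by the highest Pearson r. For Thbs1 they were Magi1 (0.992) and Zmat3 (0.990), and for Tnc 8030451A03Rik (0.995) and Tnfrsf22 (0.988). For Thbs2 they were Igfbp7 (0.998) and Mxra8 (0.996), and for Spp1 Anxa5 (0.994) and Bcl2l1 (0.994). For Postn they were Slco2a1 (0.981) and Fgf2 (0.957), for Vcan Ncoa4 (0.986) and Glis3 (0.979), for Thbs3 Cryz (0.992) and Mat2b (0.987), for Thbs4 Cr1l (0.970) and Lef1 (0.968) and for Tnxb Lrrc8d (0.990) and Nr4a2 (0.985). Each r rests on 6 libraries and is given without a p.

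Some of the genes share exon sequence with a neighbour, and no label or header says whether the reads were counted by strand. Tnc overlaps 8030451A03Rik on the opposite strand over 176 bases, 2.26% of its exon bases. That transcript stood at 120.0, 96.7 and 29.8 in the controls and at 148, 159 and 114 in the knockout libraries, and whether shared reads add to its likeness to Tnc was not tested. Thbs3 overlaps Mtx1 over 318 bases, 6.59%, which stood at 559.9, 646 and 547 against 405, 588 and 485. Spp1 overlaps Gm42793 on the same strand over 309 bases, 18.8%, and Thbs1 overlaps Gm29233 over 208 bases, 3.42%.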

How the data were processed

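RNA-seq of 6 libraries, 3 control and 3 labelled Islr knockout, was analysed from the deposited tables. Per the submitters' processing notes, the tools were HISAT2 2.0.5 and HTSeq, with Trimmomatic, edgeR 3.18.1 and DESeq2 1.16.1. Build, annotation and strand setting: not given in the sources used here. However, 26923 of the 27074 gene identifiers found in GENCODE M21 (GRCm38) had the same position there. The authors deposited a signal of scaled reads, which are gene reads divided by 1 size factor per library (0.8581 to 1.1948), and 100.0% of values gave whole reads within 0.01. The authors also deposited FPKM and, from their own comparison, a log2 fold change, a p-value and an adjusted p-value. A second table deposited by the authors holds a raw count for 1031 features. Of these, 480 were in the main table and equal in all 6 libraries, and none was one of the 9 genes. The library name of control 1 differs from its label by 2 exchanged digits out of 4. DESeq2 on the recovered reads with this assignment gave the deposited log2 fold change within 0.01 for 100.0% of 27366 genes. Before that, 36 damaged lines were dropped.

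Limma 3.58.1 (trend and robust, two-sided) was fitted in R 4.3.3 to log2(scaled reads + 1) of the 20344 genes with a mean of at least 1, with Benjamini-Hochberg adjustment over all of them, a threshold of 0.05 and no block. A fold change on this scale understates that of low genes. A second limma fit tested the replicate numbers with genotype as a term. Alternatives were a pseudocount of 0.1, a mean of at least 10, no filter, TMM and library size scaling, the replicate block, edgeR 4.0.16, DESeq2 1.42.0 and leaving out each library. The limma and edgeR fits without a block and the limma fit of the replicate numbers were tested on simulated data. The simulated libraries had no difference between replicate numbers, so the test does not cover such differences. The fits with a block and DESeq2 were not run on them. The pairing was checked on 14280 genes with a mean of at least 10. After subtraction of each group's mean, libraries sharing a number had correlations of 0.689, 0.633 and 0.625, and the others -0.513 to -0.245. Subtracting the mean of so few libraries makes negative values follow from the positive ones, so they are not separate evidence. The numbers were treated as pairs on the correlations within a number. No label states a pairing, although libraries sharing a number also have column names close to each other.

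The 9 genes and the lists were chosen with earlier results of these data known. Named beside the 9 were Islr, Sparc, Myog and Pax7, the gene with the smallest p in each direction per list, the marker with the highest mean, the 2 most alike genes per member and overlapping genes. Other genes were named after their values were seen, to spell out a count. Marker lists covered satellite cells, differentiating muscle, fibroblasts, tenocytes, macrophages, endothelium, pericytes and Schwann cells. Counts over a list leave out genes whose mean was under 1 in either group, a choice made after seeing the data. Promoter windows came from RefSeq on GRCm38.p6.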

Additional observations from a re-analysis of the deposited data

How the results depend on the processing

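No gene was called between the groups by limma, and the same held under 17 of the 19 alternatives. The exceptions were DESeq2 with the replicate block, which called 13 genes, and limma with the replicate block without number 1, which called 93. None of the 9 genes was among them (smallest adjusted p 0.336 and 0.0623, both Postn). The count of genes at an unadjusted p under 0.05 was 276 in limma. It was 120 with a mean of at least 10, 162 by edgeR, 933 with the replicate block, 609 by edgeR with the block, 714 by DESeq2 with the block, and 1404 and 2043 with the block without number 1 and number 2. Leaving out 1 library gave 91 (knockout 3) to 831 (knockout 1), with 520 without control 2. Between replicate numbers limma called 1291 genes, against 566 with a pseudocount of 0.1, 795 with a mean of at least 10, 514 by edgeR, and 291 (without knockout 1) to 2513 (without knockout 2) on leaving out 1 library, where the other 4 gave 390 to 542. The cause was not tested. Of the 9, 7 to 9 lay on the higher side under every alternative. Leaving out 1 library gave Thbs3 a log2 fold change of -0.94 (control 1) to 0.02 (knockout 1). Over the same settings the differences between replicate numbers turned for Postn (-0.48 to 0.85), Vcan (-0.05 to 0.80), Spp1 (-0.02 to 1.71) and Tnxb (-0.20 to 1.50), while Tnc reached 2.09 (limma adjusted p = 0.0351) without knockout 3. The replicate block changed no adjusted call among the 9 genes (limma adjusted p = 0.92 each). Depth limits Tnxb, with 9 to 41 reads per library, most.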
